A study of Arabidopsis thaliana with 12 samples.

Results

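The genes described here encode the proteins of the small (40S) subunit of the cytosolic ribosome in Arabidopsis thaliana. They were taken from a list of 60 loci in 26 protein families, and a locus was kept where a probe set of the array is listed with that gene alone. This left 34 genes in 19 families among 13286 genes that have such a probe set, each with 1 probe set, and all 34 passed the signal filter used for testing. Another 10 loci are reached by 6 probe sets that each match several genes and 16 have no probe set in the list used here, so these 26 loci were not analysed here. Among them are the genes known best from leaf mutants: PFL (S18), RPS13A (S13), RPS5A, both S6 genes (RPS6 and EMB3010), RPS10B and P40 (Sa).

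Rosette leaves were measured on 12 ATH1 arrays, 3 in each of 4 groups. These are Col-0 at growth stages 1.05 and 1.14, and plants of the Col-0 ecotype carrying an RNA interference construct against SPH1 (SPH1 RNAi) at the same stages. The stages count rosette leaves, so 1.05 is the younger rosette. Below, young and older leaves mean the leaves of rosettes at stages 1.05 and 1.14, whatever the age of each leaf. SPH1 is one of a family of small secreted plant proteins, the S-protein homologues, and the series set out to find transcripts that change with it as leaves develop. Each array stands for 40 pooled plants, raised under glass with 16 h of light, at 20 °C and a humidity of 80%. The labels name neither the promoter of the construct, nor the number of lines, nor the age in days. SPH1 itself has no listed probe set, and its lowering could not be checked. Nothing says whether the arrays of a group came from separate sowings, so p-values cover array-to-array spread, which may be technical.

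The small subunit binds the mRNA and holds the codon against its tRNA, while the large (60S) subunit forms the peptide bond. In Arabidopsis each ribosomal protein is encoded by a small family of nearly identical genes, called paralogues, and most are expressed together. Their transcripts are abundant where cells grow and divide, and leaves lose that demand as they expand. Loss of single members, such as the S18 gene PFL or the S13 gene, is known to give narrow, pointed young leaves.

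Some facts about the arrays bear on the values. Among the older SPH1 RNAi arrays, replicate 1 differed from the others, most plainly in the root-type genes given below, and replicates 2 and 3 are titled as repeated hybridisations. Replicate 3 lacks the RNAi tag that its group carries in the labels and was placed by its name. The actin controls compare signal at the 3′ and 5′ ends of one mRNA, and their log2 ratio rises as RNA breaks down. It was 2.55 ± 0.35 (SD, n = 3) in young Col-0 leaves and 1.82 ± 0.235 in older ones. In SPH1 RNAi it was 2.67 ± 0.592 and 1.95 ± 0.454. Its mean was thus lower at the later stage in both genotypes. The stages did not overlap in Col-0 (2.3 to 2.95 against 1.58 to 2.05) and overlapped in SPH1 RNAi. In Col-0 the ratio therefore changed together with stage, beside the stage changes below, and its part in them was not tested. The same ratio for the GAPDH controls averaged 0.833 ± 0.472 in young Col-0 leaves against 1.42 ± 0.53 in young RNAi leaves, and 0.553 ± 0.0981 against 0.903 ± 0.422 in older ones (SD, n = 3). Its mean was higher in SPH1 RNAi at both stages, the arrays of the genotypes overlapped at both, and its part in the genotype differences was not tested. Average background was 68.54 to 136.5 per array. In young leaves it was 86.4 to 118.93 in Col-0 and 68.54 to 79.46 in SPH1 RNAi, with no overlap. In older leaves the genotypes overlapped in background. The part of background in the genotype differences was not tested. With 3 arrays per group the precision is limited.

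The 40S genes moved as a block that followed growth stage in Col-0 and followed it less in SPH1 RNAi. For each gene the log2 of the signal plus 16 was set against its own mean over the 12 arrays, and the median of this deviation was taken over the 34 genes. It was 0.53, 0.50 and 0.47 on the Col-0 arrays at stage 1.05 and −0.65, −1.08 and −0.71 at stage 1.14. In SPH1 RNAi it was 0.47, 0.29 and 0.38 at stage 1.05 and 0.15, −0.16 and −0.17 at stage 1.14. The older RNAi leaves thus lay between the young leaves of both genotypes and the older Col-0 leaves, on every array. Over all tested probe sets the same median stayed between −0.05 and 0.08.

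**Figure D1:**
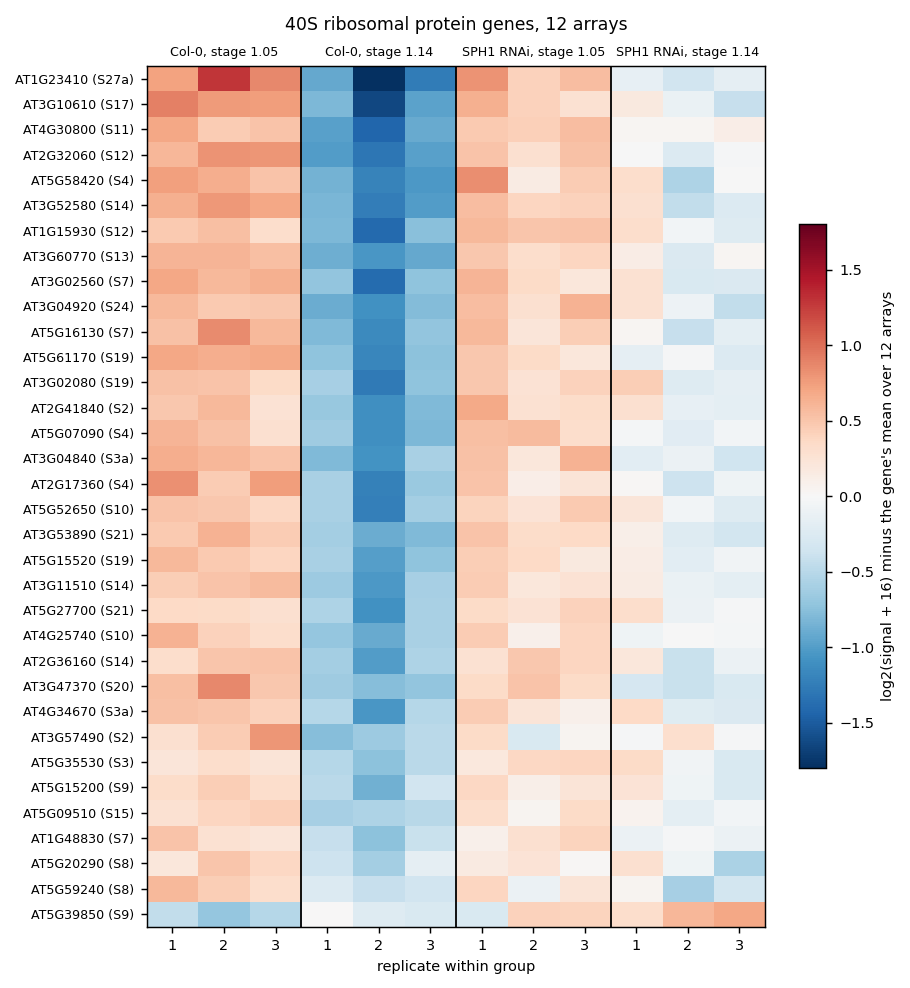
Heat map of the 34 genes (rows, protein in brackets, ordered by their level in older Col-0 leaves) on the 12 arrays (columns, by group and replicate). Colour is log2 of the signal plus 16 minus the gene's own mean over the 12 arrays, red above and blue below. The block of Col-0 at stage 1.14 is blue in nearly all rows, that of SPH1 RNAi at stage 1.14 is pale, and AT5G39850 in the bottom row runs against the others.

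Summed over the 34 genes, the 40S signal was 43516, 44969 and 42039 in young Col-0 leaves and 19819, 15028 and 20222 in older ones. In SPH1 RNAi the sums were 42126, 37766 and 39291 at stage 1.05 and 35079, 27629 and 26708 at stage 1.14. As a share of all signal on the array this was 1.28% to 1.37% in young Col-0 leaves, 0.485% to 0.666% in older Col-0 leaves, 1.19% to 1.28% in young RNAi leaves and 0.906% to 1.16% in older ones. In these genes the older groups also varied more from array to array. On the log2 scale the median SD over the members at stage 1.14 was 0.23 for Col-0 and 0.22 for SPH1 RNAi, against 0.11 and 0.14 at stage 1.05. Over all tested probe sets the median SD was 0.16 and 0.22 at stage 1.14, against 0.17 and 0.19 at stage 1.05. In Col-0 at stage 1.14, replicate 2 was the lowest of the 3 arrays in 31 of 34 genes. In SPH1 RNAi at stage 1.14, replicate 1 was the highest in 26 of 34.

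The stage comparison in Col-0 asks how the genes change as the rosette ages without the construct. Of the 34 genes, 33 fell from stage 1.05 to 1.14, 0 rose and 1 did not pass (limma, Benjamini-Hochberg adjusted p under 0.05 over all tested probe sets). Among all 13263 tested probe sets 21.0% fell. The median log2 change was −1.31, with a range from −2.30 to 0.39, against a median of 0.02 over all tested probe sets. In 33 genes all 3 older arrays lay below all 3 young ones, as they did in 28.0% of all tested probe sets. Proteins of the subunit's head and of its body did not separate: 12 of 12 head genes and 21 of 22 body genes fell, with medians of −1.33 and −1.29. Leaving out any 1 array kept the count of genes past the threshold, in either direction, at 33 or 34. A count of 34 includes AT5G39850, whose older Col-0 arrays all lay above the young ones.

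In whole-leaf RNA, fewer cells with a high content of these transcripts and less of them per cell cannot be told apart. Markers of dividing cells moved alongside. Of 12 listed genes 3 have a probe set (the mitotic kinases AUR1 and AUR2 and the replication helicase subunit PRL). Their summed signal was 270.1 to 357.7 in young and 91.7 to 129.8 in older Col-0 leaves. All 3 fell in Col-0, beside 21.0% of all tested probe sets. The sum was 248.2 to 280.3 in young RNAi leaves and 282.3, 169.6 and 225.4 in older ones. The root-type genes PYK10 and JAL33 gave summed signals of 425.9 to 709.1 in young Col-0 leaves and 22.7 to 36.8 in older ones. In SPH1 RNAi they gave 370.9 to 657.9 and then 423.9, 72.2 and 93.1, the high value being replicate 1. The part of these markers in the 40S changes was not tested. The mature-leaf genes (the Rubisco activase RCA and the antenna proteins LHCB4.1, LHCB4.2 and LHCB4.3, 4 of 9 listed) were well measured in all groups, at summed signals of 11425.5 to 15677.7, 9747.0 to 12355.3, 11341.2 to 13149.4 and 7954.4 to 9703.7 in the order above (Col-0 young, Col-0 older, RNAi young, RNAi older). Of the senescence genes 2 of 5 were measured, with summed signals of 125.9 to 161.2, 85.9 to 141.9, 68.2 to 107.4 and 109.3 to 239.1 in that order. These sums join genes that moved in opposite directions. With stage in Col-0, the sugar transporter SAG29 fell (−2.20 ± 0.44, limma adjusted p = 0.00159) and the transcription factor WRKY53 rose (1.65 ± 0.24, 0.000179). At stage 1.05 SAG29 was lower in SPH1 RNAi (−1.74 ± 0.44, 0.0381) and WRKY53 higher (1.16 ± 0.24, 0.0134).

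The largest fitted fall at this offset was in AT1G23410, whose product is a fusion of ubiquitin with ribosomal protein S27a, a head protein released when the ubiquitin is cut off. It read 90.8, 140.3 and 101.4 in young Col-0 leaves and 18.0, 2.0 and 10.9 in older ones. The older values lie near or under the offset of 16, so its log2 change of −2.30 ± 0.22 (SE, adjusted p = 1.05e-05) depends on that offset and was −3.65 with an offset of 1 and −1.23 with 64. Its rank depends on the offset too, since at 64 AT2G32060 was at −1.68 and AT3G10610 at −1.62. In SPH1 RNAi it read 96.6, 70.2 and 78.6 in young leaves and 41.7, 34.3 and 41.3 in older ones. The older RNAi arrays all lay above the older Col-0 arrays and below every young array.

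AT3G10610 encodes S17, another head protein. Its signal was 528.2, 475.1 and 472.2 in young Col-0 leaves and 149.1, 77.1 and 132.1 in older ones, a fall of 3.86-fold (log2 change −1.95 ± 0.21, limma adjusted p = 2.66e-05). In SPH1 RNAi it was 436.4, 370.3 and 336.5 at stage 1.05 and 309.7, 250.3 and 201.5 at stage 1.14. No group overlapped another.

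AT2G32060 encodes S12, which sits on the beak of the head. It read 928.6, 1079.2 and 1061.5 in young Col-0 leaves and 294.8, 236.7 and 299.1 in older ones, a fall of 3.56-fold with the smallest adjusted p of the 34 (log2 change −1.83 ± 0.15, limma adjusted p = 3.40e-06). In SPH1 RNAi the signals were 875.8, 746.7 and 885.0 at stage 1.05 and 604.3, 512.4 and 599.6 at stage 1.14. The older RNAi leaves again lay between older Col-0 leaves and all young leaves.

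AT4G30800 is an S11 gene, whose protein binds the rRNA of the body. Its signals were 211.3, 176.6 and 186.0 in young Col-0 leaves, 55.5, 36.2 and 59.0 in older ones, 178.1, 174.0 and 190.0 in young RNAi leaves and 129.0, 127.5 and 136.3 in older ones. The Col-0 fall was 3.16-fold (log2 change −1.66 ± 0.15, limma adjusted p = 6.00e-06). Young leaves of the genotypes overlapped, while older RNAi leaves kept more than 2-fold the signal of older Col-0 leaves.

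Another 2 members complete the 6 largest fitted falls in Col-0. AT3G52580, an S14 gene, whose protein lies on the platform where the mRNA leaves, went from 674.3, 744.7 and 701.7 to 236.1, 170.7 and 206.7 (log2 change −1.72 ± 0.19, limma adjusted p = 2.30e-05). AT5G58420, an S4 gene of the body, went from 923.3, 872.2 and 790.0 to 296.8, 229.0 and 260.2 (−1.66 ± 0.22, adjusted p = 0.000108). The shallowest falls that passed were in AT5G20290 (S8), at −0.74 ± 0.20 (adjusted p = 0.0100), and in its paralogue AT5G59240, at −0.78 ± 0.18 (adjusted p = 0.00408), whose mean signal of 35.1 lies just above the filter of 32.

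In SPH1 RNAi the same stage step was smaller. Of the 34 genes, 7 fell, 0 rose and 27 did not pass, beside 4.46% of all tested probe sets that fell. The median log2 change was −0.44, with a range from −0.82 to 0.35, against 0.02 over all tested probe sets. The arrays of the stages did not overlap in 21 genes, all lower at stage 1.14, as in 13.8% of all tested probe sets. The count of 7 rested on single arrays. It was 12 when replicate 1 of older SPH1 RNAi was dropped and 11 when replicate 2 of older Col-0 was. It was 1 when replicate 3 of older SPH1 RNAi, or replicate 1 or 3 of young SPH1 RNAi, was dropped. Dropping replicate 2 of older SPH1 RNAi, replicate 3 of older Col-0 or replicate 3 of young Col-0 left 2, and dropping replicate 2 of either young group left 4. The median stayed between −0.54 and −0.36 in all of these.

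AT3G47370, an S20 gene of the head, was the member, of the 6 whose falls in SPH1 RNAi passed with the largest change, that passed whichever array was left out, though not in a fit of the 6 RNAi arrays alone. It read 756.8, 850.1 and 750.3 in young RNAi leaves and 475.7, 443.1 and 488.5 in older ones, a fall of 1.65-fold (log2 change −0.72 ± 0.14, limma adjusted p = 0.00870). In Col-0 it went from 863.3, 1089.0 and 832.5 to 374.2, 339.3 and 354.1 (−1.34 ± 0.14, adjusted p = 1.79e-05). This gene came closest to a parallel course in both genotypes among those that fell in both, with an interaction of 0.61 ± 0.20 (adjusted p = 0.106).

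The other 6 that fell in SPH1 RNAi were AT1G23410 (S27a) at −0.82 ± 0.22 (limma adjusted p = 0.0353), AT3G04840 (S3a) at −0.68 ± 0.16 (0.0220), AT5G16130 (S7) at −0.61 ± 0.17 (0.0441), AT5G07090 (S4) at −0.57 ± 0.16 (0.0392), AT3G53890 (S21) at −0.55 ± 0.15 (0.0357) and AT2G32060 (S12) at −0.53 ± 0.15 (0.0381). For all 7 the log2 change in Col-0 was −1.29 or steeper. The calls of AT1G23410, AT5G16130, AT5G07090 and AT3G53890 were each lost without 8, 9, 8 and 7 of the 12 arrays taken singly, and that of AT3G04840 without 3. AT1G23410 was at −1.04 with an offset of 1, where it did not pass, and at −0.50 with 64.

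Of these genes, AT3G04840 (S3a) read 2135.3, 1696.1 and 2277.5 in young RNAi leaves and 1283.4, 1358.2 and 1138.5 in older ones, against 2322.0, 2244.1 and 2109.8 and then 837.8, 689.2 and 973.3 in Col-0. AT5G16130 (S7) read 1789.6, 1382.5 and 1621.3 and then 1211.6, 883.4 and 1047.2 in SPH1 RNAi, against 1723.8, 2152.0 and 1798.6 and then 672.7, 527.5 and 721.7 in Col-0. In both genes the older RNAi arrays lay above the older Col-0 arrays and below all young ones. AT5G07090 (S4) went from 968.4, 990.8 and 825.6 to 645.8, 570.8 and 637.9 in SPH1 RNAi and from 1014.6, 962.6 and 810.9 to 418.9, 296.8 and 369.3 in Col-0. AT3G53890 (S21) went from 1253.6, 1098.0 and 1125.9 to 935.7, 741.6 and 690.5 in SPH1 RNAi and from 1213.5, 1344.0 and 1206.2 to 565.3, 459.1 and 495.1 in Col-0. These, too, kept the older RNAi arrays between the older Col-0 arrays and the young ones, with no overlap.

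**Figure D2:**
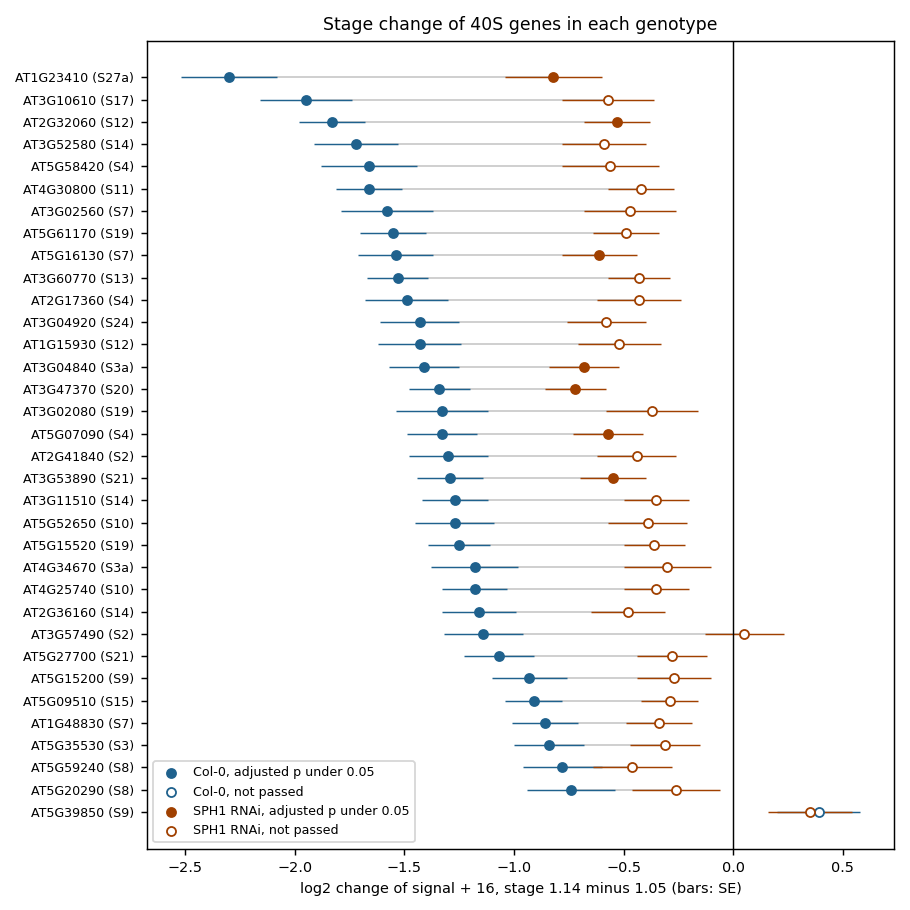
Log2 change of the signal plus 16 from stage 1.05 to 1.14 for each of the 34 genes (rows), in Col-0 (blue) and SPH1 RNAi (brown). Bars are standard errors from the fit of 12 arrays, filled points passed at an adjusted p under 0.05, open points did not, and a grey line joins the 2 genotypes. In 33 genes the RNAi point lies to the right of the Col-0 point, and in AT5G39850 they fall together above 0.

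Whether the stage change itself differed between the genotypes was tested as the interaction, the RNAi change minus the Col-0 change. It was positive in 33 of 34 genes, with a median of 0.87 and a range from −0.04 to 1.48, against −0.02 over all tested probe sets. It passed in 10 genes, all with a smaller fall in SPH1 RNAi, beside 1.48% of all tested probe sets. An unadjusted limma p under 0.05, in either direction, was found in 31 of 34, beside 2632 of all 13263 tested probe sets. By position, 5 of 12 head genes and 5 of 22 body genes passed. The count was 3 when replicate 2 or 3 of either young group was dropped. It was 16 when young SPH1 RNAi replicate 1 was dropped, 6 when young Col-0 replicate 1 was dropped, 6 and 4 for replicates 2 and 3 of older Col-0, and 5 for replicate 3 of older SPH1 RNAi. Without older SPH1 RNAi replicate 1 it was 11. Array weights gave 23, leaving out the repeated hybridisations 21 and testing without the filter 4.

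The interaction was strongest by p in AT2G32060 (S12), at 1.30 ± 0.21 (limma adjusted p = 0.00929), then in AT4G30800 (S11), at 1.24 ± 0.21 (0.0111), and AT3G60770 (S13), at 1.11 ± 0.19 (0.0133). These 3 passed with every array left out in turn. AT3G60770 encodes S13, whose protein sits in the body and takes part in contacts with the large subunit. It read 1698.7, 1708.0 and 1619.8 in young Col-0 leaves and 597.4, 527.9 and 579.7 in older ones, but 1552.8, 1394.5 and 1452.7 and then 1218.3, 924.0 and 1133.7 in SPH1 RNAi. AT5G61170 (S19; 1.06 ± 0.21, adjusted p = 0.024), AT1G23410 (S27a; 1.48 ± 0.31, 0.0274) and AT3G57490 (S2; 1.20 ± 0.26, 0.0324) also passed, and lost the call without 4, 6 and 9 of the arrays, taken singly. The value for AT1G23410 was 2.61 with an offset of 1, where it did not pass, and 0.73 with 64.

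AT3G57490, alone among these genes, had no fitted fall in SPH1 RNAi, though its difference from the others was not tested. Its S2 protein lies at the mRNA entry and bears on the accuracy of decoding. The signal fell from 183.0, 206.6 and 264.4 to 79.7, 87.1 and 100.9 in Col-0 plants, a log2 change of −1.14 ± 0.18 (limma adjusted p = 0.000361). In SPH1 RNAi it was 189.7, 117.8 and 151.9 at stage 1.05 and 144.6, 184.3 and 144.7 at stage 1.14, with a change of 0.05 ± 0.18 (adjusted p = 0.88). The RNAi stages overlapped.

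In older rosettes the genotypes were then set against each other. Of the 34 genes, 25 were higher in SPH1 RNAi, 0 were lower and 9 did not pass, beside 4.70% of all tested probe sets that were higher. The median log2 difference was 0.72, with a range from 0.04 to 1.17, against 0.04 over all tested probe sets, and all 34 differences were positive. In 32 genes the 3 RNAi arrays lay above the 3 Col-0 arrays, as in 17.9% of all tested probe sets. Here 10 of 12 head genes and 15 of 22 body genes passed, with medians of 0.76 and 0.71. This comparison and the Col-0 stage comparison share the older Col-0 arrays. The older RNAi arrays were set against young Col-0 leaves as well: in 27 genes all 3 lay below all 3 young Col-0 arrays, and in 26 they lay in the gap between young and older Col-0 leaves. These patterns were not counted over all tested probe sets, so how common they are among other genes is not known.

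The count of 25 depended on the lowest Col-0 array and on others. Among the older Col-0 arrays, leaving out replicate 2 gave 8 genes and leaving out replicate 3 gave 14. Among the older RNAi arrays, replicates 1 and 3 each left 16 when dropped. The median was then 0.61, 0.79, 0.67 and 0.77 in the same order, and 2 genes passed in a fit of these 6 arrays alone. Beside this, the division gene PRL was 0.82 ± 0.19 higher in older RNAi leaves (limma adjusted p = 0.0249), with AUR2 at 0.68 ± 0.20 (0.0639) and AUR1 at 0.62 ± 0.19 (0.0703). JAL33 was 1.06 ± 0.26 higher (0.0340) and LHCB4.2 was lower, at −0.61 ± 0.15 (0.0324).

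The largest differences at stage 1.14 were in genes already shown: AT4G30800 (S11) at 1.17 ± 0.15 (limma adjusted p = 0.00203), AT1G23410 (S27a) at 1.11 ± 0.22 (0.0135), AT3G10610 (S17) at 1.02 ± 0.21 (0.0177) and AT2G32060 (S12) at 1.01 ± 0.15 (0.00322). The value for AT1G23410 was 2.18 with an offset of 1 and 0.48 with 64. AT1G15930, the other S12 gene, read 934.5, 611.8 and 973.0 in older Col-0 leaves and 2041.0, 1592.0 and 1405.5 in older RNAi leaves, a 2.00-fold difference (log2 1.00 ± 0.19, adjusted p = 0.011). At stage 1.05 it read 2286.1, 2402.7 and 2052.0 in Col-0 and 2486.3, 2336.4 and 2344.5 in SPH1 RNAi. Those young groups overlapped, and the older ones did not. AT5G58420 (S4) read 683.4, 366.8 and 545.3 in older RNAi leaves against 296.8, 229.0 and 260.2 in Col-0 (0.94 ± 0.22, adjusted p = 0.0286), and its call was lost without any of the 3 Col-0 arrays or without RNAi replicates 1 or 3 of that stage.

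**Figure D3:**
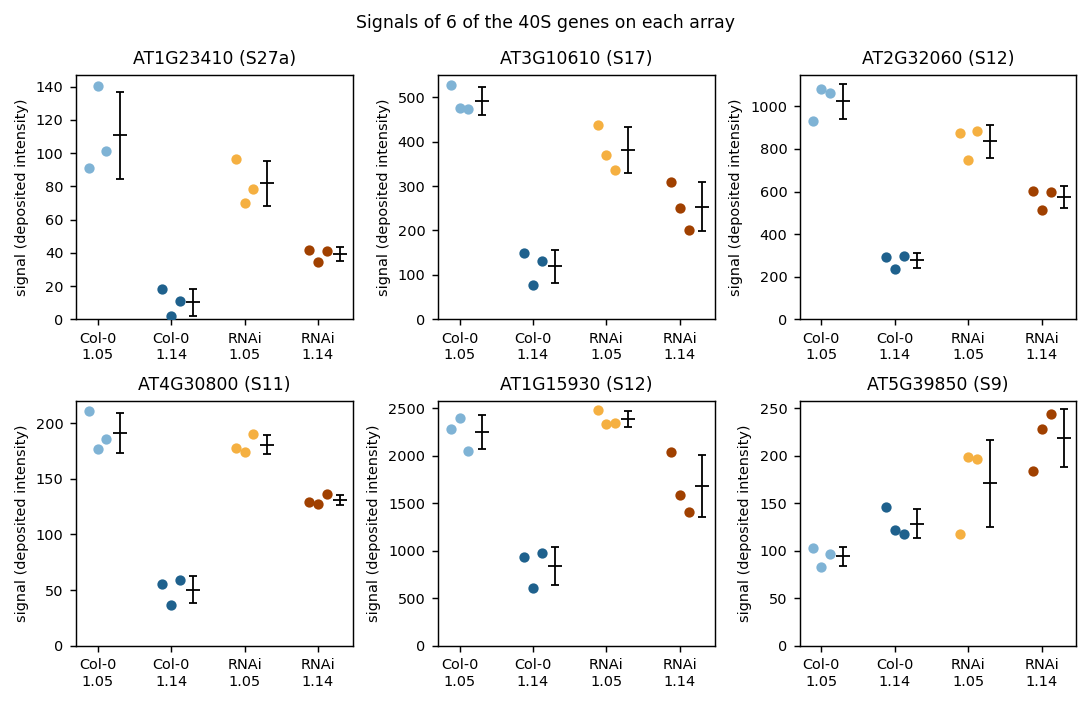
Deposited signal (vertical axes from 0, one scale per gene) of 6 genes on each array, by genotype and stage, with the mean and SD of each group beside its 3 points. In 5 of the genes the older RNAi points lie above the older Col-0 points and below the young ones, while in AT5G39850 both RNAi groups lie above the Col-0 group of their stage.

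Of the 9 genes that did not pass at stage 1.14, AT5G35530 (S3, at the mRNA entry channel) had a difference of 0.58 ± 0.16 (limma adjusted p = 0.0504), AT2G36160 (S14) 0.62 ± 0.17 (0.0527), AT2G17360 (S4) 0.68 ± 0.19 (0.0562) and AT4G34670 (S3a) 0.65 ± 0.20 (0.0664). AT5G15200 (S9) was at 0.53 ± 0.17 (0.0811), AT1G48830 (S7) at 0.44 ± 0.15 (0.0925) and AT3G47370 (S20) at 0.38 ± 0.14 (0.116). The S8 genes AT5G20290 and AT5G59240 had the smallest differences, 0.26 ± 0.20 (0.469) and 0.04 ± 0.18 (0.930), and are the members whose genotypes overlapped at this stage. AT5G20290 had 2119.3, 1792.2 and 2452.7 in older Col-0 leaves and 3363.9, 2591.6 and 1844.2 in older RNAi leaves. AT5G59240 had 26.0, 21.0 and 23.2 against 35.3, 16.7 and 23.3, near the lower end of measurement.

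At stage 1.05 the genotypes differed little in these genes. Of the 34, 1 was higher in SPH1 RNAi, 0 were lower and 33 did not pass, beside 4.57% of all tested probe sets that were higher and 0.762% that were lower. The differences were negative in 29 genes, with a median of −0.15 and a range from −0.48 to 0.74, against 0.04 over all tested probe sets. In 5 genes the 3 RNAi arrays lay below the 3 Col-0 arrays, as in 11.7% of all tested probe sets. An unadjusted limma p under 0.05 was found in 3 of the 34, beside 2658 of all 13263 tested probe sets. The largest negative difference was that of AT3G57490 (S2), −0.48 ± 0.18 (limma adjusted p = 0.169).

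The exception at stage 1.05 was AT5G39850, an S9 gene. The S9 protein joins the subunit early in its assembly and lies near the mRNA entry. Its signal was 102.9, 83.0 and 96.2 in Col-0 and 117.7, 198.9 and 196.2 in SPH1 RNAi at stage 1.05, a log2 difference of 0.74 ± 0.19 (limma adjusted p = 0.0404). At stage 1.14 it was 146.1, 121.4 and 117.8 in Col-0 and 183.9, 228.1 and 243.5 in SPH1 RNAi, a difference of 0.70 ± 0.19 (adjusted p = 0.0457). RNAi lay above Col-0 on every array of the same stage. The young RNAi replicate 1 lay closest to Col-0, and without it the gene still passed at stage 1.05, whereas it did not pass there without any of 9 other arrays taken singly. The call at stage 1.05 was also lost without the filter, after quantile normalization, in a fit of the 6 arrays alone and with a replicate block. Over both stages the difference was 0.72 ± 0.13 (adjusted p = 0.00684), and this call held without any 1 array. Average background was higher on every young Col-0 array than on every young RNAi array. The part of background in the difference at stage 1.05 was not tested.

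AT5G39850 was also the member that did not fall with stage. Its log2 change from stage 1.05 to 1.14 was 0.39 ± 0.19 in Col-0 plants (limma adjusted p = 0.111) and 0.35 ± 0.19 in SPH1 RNAi (adjusted p = 0.245), with an interaction of −0.04 ± 0.27 (adjusted p = 0.959). The other measured S9 gene, AT5G15200, read 2514.1, 2707.8 and 2490.4 in young Col-0 leaves and 1418.2, 1086.4 and 1576.0 in older ones, and 2581.7, 2140.1 and 2334.4 and then 2367.1, 1885.9 and 1652.1 in SPH1 RNAi. It followed the block, with a Col-0 change of −0.93 ± 0.17 (adjusted p = 0.000905).

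Averaged over both stages, 7 genes were higher in SPH1 RNAi, 0 were lower and 27 did not pass, beside 6.79% of all tested probe sets that were higher. The median was 0.29, against 0.05 over all. After AT5G39850 came AT4G30800 (S11) at 0.55 ± 0.10 (limma adjusted p = 0.00728) and AT1G15930 (S12) at 0.54 ± 0.13 (0.0258). AT5G27700 (S21) was at 0.41 ± 0.12 (0.0447), with 1055.7, 726.3 and 1037.5 in older Col-0 leaves against 1931.0, 1457.7 and 1536.6 in older RNAi leaves, and 2005.3, 1978.1 and 1910.0 against 1997.8, 1872.3 and 2097.9 in young ones. AT5G07090 (S4) was at 0.38 ± 0.11 (0.0496), AT3G60770 (S13) at 0.36 ± 0.10 (0.0345) and AT2G32060 (S12) at 0.36 ± 0.10 (0.0451). The average joins a stage with little difference to one with more. The count was between 2 and 8 with 1 array left out, and 16 after quantile normalization. AT5G27700 lost its call without 11 of the 12 arrays taken singly, AT5G07090 and AT3G60770 without 10 and AT1G15930 without 3.

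Family by family, paralogues mostly kept the same course. Their probe sets are compared below by their changes, since levels of different probe sets cannot be set against each other. Nearly identical paralogues may share probes, and how far was not tested, so each value may hold some signal of a relative.

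Among the head families, the S10 genes AT5G52650 and AT4G25740 fell by 1.27 and 1.18 on the log2 scale in Col-0 and were 0.79 and 0.69 higher in SPH1 RNAi at stage 1.14, all past the threshold. The 3 S19 genes, whose protein is needed for rRNA maturation in human cells, fell in Col-0 by 1.55 (AT5G61170), 1.33 (AT3G02080) and 1.25 (AT5G15520). All 3 were higher in older RNAi leaves, by 0.73, 0.88 and 0.73. In Col-0 AT5G61170 went from 1540.4, 1487.8 and 1516.1 to 565.2, 410.6 and 559.2, and in SPH1 RNAi from 1324.3, 1195.9 and 1088.9 to 839.4, 927.6 and 787.4. The 2 genotypes' older leaves did not overlap. AT5G09510, an S15 gene whose protein lies near the decoding site, fell by 0.91 in Col-0 and was 0.50 ± 0.13 higher in older RNAi leaves (limma adjusted p = 0.0422). AT5G35530 (S3) fell by 0.84 in Col-0.

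In the body and platform families, the S2 genes AT2G41840 and AT3G57490 fell by 1.30 and 1.14 in Col-0. In SPH1 RNAi neither passed, at −0.44 ± 0.18 for AT2G41840 (limma adjusted p = 0.131) and 0.05 ± 0.18 for AT3G57490 (0.88). Their ratio differed by −0.33 between the stages in the exact permutation test described below (p = 0.12, adjusted 0.253). The 3 S4 genes fell in Col-0 by 1.33 to 1.66 and the 3 S7 genes by 0.86 to 1.58. The S7 protein takes part in rRNA processing. The 3 S14 genes fell by 1.16 to 1.72 and the S21 genes AT3G53890 and AT5G27700 by 1.29 and 1.07. AT3G04920, the measured S24 gene, fell by 1.43 and was 0.84 ± 0.18 higher in older RNAi leaves (adjusted p = 0.0192).

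Differences between paralogues were tested on the log2 ratio of their signals within each array, in 19 pairs of measured paralogues, by exact two-sided permutation of the stage labels within each genotype (400 regroupings, smallest possible p 0.005). The ratio changed with stage at an unadjusted exact p under 0.05 in 8 pairs and in 0 after adjustment over the 19 (smallest adjusted p = 0.076). After quantile normalization 4 pairs passed. With genotype labels permuted within each stage, 0 pairs had a p under 0.05 and the smallest was 0.05 (adjusted 0.309). The paralogues of a family are therefore not shown to differ. Even at the smallest possible p a pair could not pass this adjustment alone, so the outcome does not show that paralogues agree. The values of the leading pairs follow.

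For S9 the ratio of AT5G15200 to AT5G39850 differed by −0.97 between the stages (exact permutation p = 0.015), by −1.32 in Col-0 and −0.62 in SPH1 RNAi. Its stages overlapped in SPH1 RNAi, at 4.28, 3.33 and 3.47 in young and 3.58, 2.96 and 2.68 in older leaves. For S14, the ratio of AT3G11510 to AT3G52580 was 1.5, 1.43 and 1.58 in young and 1.87, 1.92 and 2.09 in older Col-0 leaves, with no overlap. In SPH1 RNAi the S14 ratio was 1.6, 1.51 and 1.54 in young and 1.56, 2.04 and 1.77 in older leaves, and the stages overlapped. Over both genotypes its stage difference was 0.35 (exact permutation p = 0.0100), by 0.24 in SPH1 RNAi. The ratio of the S7 genes AT1G48830 and AT5G16130 differed by 0.48 between the stages (exact permutation p = 0.0200), and that of the S3a genes AT3G04840 and AT4G34670 by −0.31 (exact permutation p = 0.0200). The first gene of the S7 pair thus had the smaller stage change and the first of the S3a pair the larger one, at p-values that miss the threshold once adjusted. The leading pairs by genotype were the S21 genes, with a ratio of AT3G53890 to AT5G27700 that was 0.16 lower in SPH1 RNAi (−0.16, exact permutation p = 0.05), and AT2G17360 to AT5G58420 of S4 (−0.25, exact permutation p = 0.06).

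**Figure D4:**
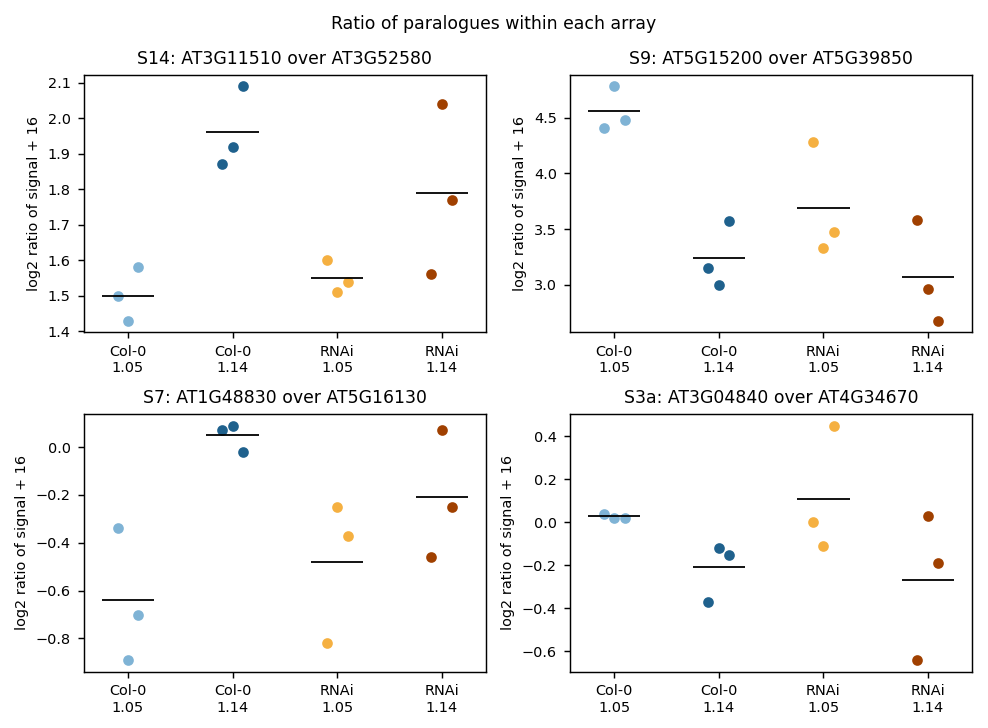
Log2 ratio of the signals plus 16 of 2 paralogues on each array, for the 4 leading pairs by stage. Points are arrays by genotype and stage, and lines are group means. The axes do not start at 0. The mean S9 ratio is lower at stage 1.14 in both genotypes, by 1.32 in Col-0 and 0.62 in SPH1 RNAi, where the arrays overlap. The means of the other pairs shift by less than 0.7.

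Genes that serve the same pathway were taken from lists. Of 32 listed ribosome assembly factors 13 were measured. In Col-0, 9 fell with stage and 4 did not pass (median −0.74), beside 21.0% of all tested probe sets that fell. In SPH1 RNAi 0 fell, beside 4.46%, with a median of −0.17. In limma 3 of the 13 had an unadjusted p under 0.05 there, beside 3730 of all 13263 tested probe sets. At stage 1.14, 9 were higher in SPH1 RNAi, beside 4.70%, and 4 did not pass (median 0.75). At stage 1.05 0 passed in limma, beside 5.33% of all tested probe sets, with a median of 0.08. Here 3 of the 13 had an unadjusted p under 0.05, beside 2658 of all 13263 tested probe sets. AT5G14520, a pescadillo-like factor of large subunit assembly, fell by 1.32 in Col-0 and was 1.25 ± 0.15 higher in older RNAi leaves (limma adjusted p = 0.00194). AT5G08180, an NHP2-like protein of the RNAs that guide pseudouridylation, fell by 1.19 and was 0.78 higher. YAO, a nucleolar protein of rRNA processing, fell by 1.12 and was 0.75 higher (adjusted p = 0.0122). AT3G12860, a NOP56-like protein, fell by 1.08, with a genotype difference of 0.56 ± 0.19 (adjusted p = 0.104).

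Of 8 listed genes of TOR, S6 kinase and RACK1 signalling, through which growth signals reach the small subunit, 1 was measured. RAPTOR1, a partner of the TOR kinase, rose by 0.44 ± 0.13 with stage in Col-0 leaves (adjusted p = 0.0163, limma) and differed by −0.19 ± 0.13 between the genotypes at stage 1.14 (adjusted p = 0.419). Of 9 listed small subunit proteins of the plastid ribosome 2 were measured. AT1G64510 and AT3G13120 fell in Col-0 by 1.26 and 0.78, and their genotype differences at stage 1.14 were −0.20 ± 0.22 and −0.03 ± 0.24 (adjusted p = 0.635 and 0.955).

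The large subunit gives the nearest comparison, with 74 tested genes of 123 listed. In Col-0 71 fell (median −1.31), beside 21.0% of all tested probe sets. In SPH1 RNAi 22 fell, beside 4.46%, and 1 rose, beside 5.78% (median −0.47). At stage 1.14 50 were higher in SPH1 RNAi (median 0.70), beside 4.70%, and the interaction was positive and passed in 26 (median 0.81), beside 1.48%. The steepest Col-0 falls of the list were in AT5G22440 at −2.11 ± 0.16, AT3G44590 at −2.08 ± 0.15, AT2G20450 at −2.02 ± 0.16 and AT3G28900 at −1.99 ± 0.16, with limma adjusted p from 2.63e-06 to 3.43e-06. In older leaves these 4 were higher in SPH1 RNAi by 1.17, 1.25, 1.06 and 1.18. Array by array the 60S median deviation was −0.69, −1.02 and −0.65 in older Col-0 leaves and 0.10, −0.19 and −0.13 in older RNAi leaves, near the 40S values given above on the same arrays. No test of a difference between the subunits was made.

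**Figure D5:**
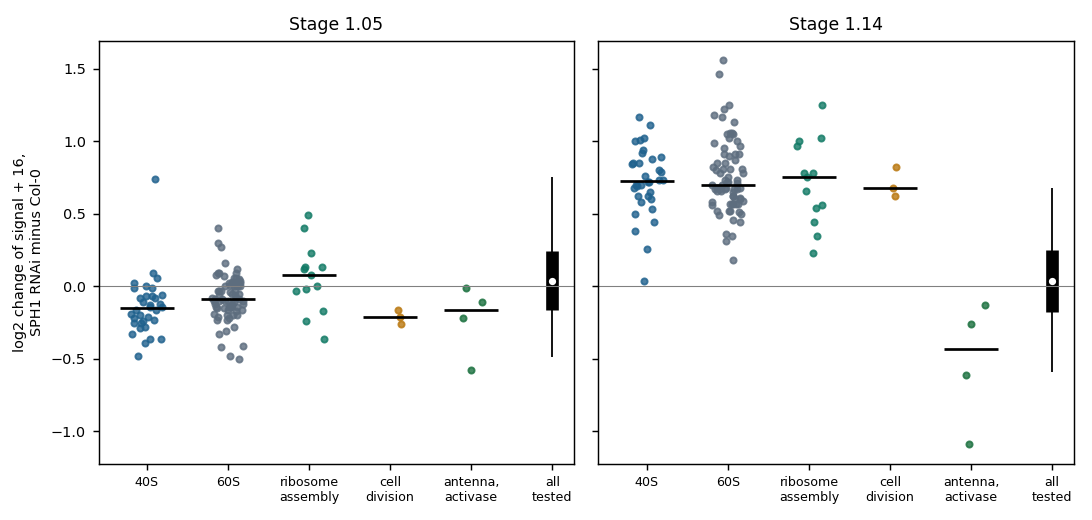
Log2 difference of the signal plus 16, SPH1 RNAi minus Col-0, at each stage, for single genes (points) of 5 lists with the list's median (line); the antenna and activase genes are the mature-leaf list. For all tested probe sets the thick bar spans the middle 50%, the thin line the 5th to 95th percentile, and the white dot is the median. At stage 1.05 the 40S median is −0.15 and AT5G39850 stands alone at 0.74, and at stage 1.14 the 40S, 60S and ribosome assembly medians are 0.72, 0.70 and 0.75.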

How the data were processed

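The deposited table gives, per array, a linear intensity for each of 22810 probe sets, as the authors made it. From the values, their mean after trimming 2% at each end was 100.01 on every array; the sources used here do not name the summary software. Groups follow the sample names, titles and tags. Genes were assigned to probe sets from the platform annotation, and symbols came from the TAIR10.1 gene list. Controls (64) were left out, and 13263 probe sets with a mean of at least 32 were tested on log2(intensity + 16). A model of 4 group means with 8 residual degrees of freedom came from limma 3.58.1 in R 4.3.3 (lmFit and eBayes with an intensity trend), with Benjamini-Hochberg adjustment over all tested probe sets. Log2 changes understate those of dim genes. The fit was tested on simulated data.

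The members and lists were chosen with earlier results of these data known. The members named are, of those that passed, the 6 of largest change per comparison and direction (for the interaction, the 6 with the smallest p), and the leading paralogue pairs (4 by stage, 2 by genotype), most of them with their values on each array. From each other list up to 4 genes with the largest Col-0 stage change are named. Others, such as AT5G20290, AT5G59240 and the genes that did not pass at stage 1.14, were named after their values were seen. Alternatives were the offset, the filter, quantile normalization, array weights, no intensity trend, fewer arrays, a replicate block and leaving out each array.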

Additional observations from a re-analysis of the deposited data

Results flagged for a closer look

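In 10 genes the stage change itself differed between the genotypes by the interaction test in limma (adjusted p under 0.05), always with a smaller fall in SPH1 RNAi, beside 1.48% of all tested probe sets. The count ranged from 3 to 16 with 1 array left out. The log2 interaction was 1.48 in AT1G23410 (S27a), 1.38 in AT3G10610 (S17), 1.30 in AT2G32060 (S12), 1.24 in AT4G30800 (S11) and 1.20 in AT3G57490 (S2). It was 1.14 in AT3G52580 (S14), 1.11 in AT3G60770 (S13), 1.06 in AT5G61170 (S19), 0.92 in AT3G11510 (S14) and 0.89 in AT5G15520 (S19). The value of AT1G23410, whose older Col-0 signals were 18.0, 2.0 and 10.9, depends on the offset of 16: it was 2.61 and did not pass with an offset of 1, and 0.73 with 64. Groups of 3 arrays are too small to call one array an outlier.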

How the results depend on the processing

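For the Col-0 stage change, the count of 40S genes past the threshold stayed within 1.5 times the reported 33 under every alternative run. It takes both directions together, and a count of 34 includes AT5G39850, which did not fall. The median change was −1.39 to −1.19 with 1 array left out. The other counts depended on single arrays. With 1 array left out, the genes that passed numbered 0 to 1 at stage 1.05, 8 to 25 at stage 1.14, 2 to 8 on average, 33 to 34 for the Col-0 stage change, 1 to 12 for the RNAi stage change and 3 to 16 for the interaction, and their medians ranged from −0.21 to −0.10, 0.61 to 0.80, 0.22 to 0.34, −1.39 to −1.19, −0.54 to −0.36 and 0.74 to 0.97.

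At stage 1.05, 0 genes passed without the filter, after quantile normalization, in a fit of the 6 arrays alone and with a replicate block, by limma. Without the filter 4 passed on average, 3 for the RNAi stage change and 4 for the interaction. Quantile normalization, which shifted an array's median by up to 0.113, gave 16 on average, 3 for the RNAi stage change (median −0.27) and 4 paralogue pairs by stage in place of 0. Array weights gave 18 for the RNAi stage change, 23 for the interaction (median 0.69) and a median of 0.56 at stage 1.14. The 6 arrays alone gave 2 at stage 1.14 and 1 for the RNAi stage change. Without the repeated hybridisations, which leaves replicate 1 as the sole older RNAi array, assumed to vary like the other groups, the counts were 14 on average, 1 for the RNAi stage change (median −0.18) and 21 for the interaction (median 1.10), and the median at stage 1.14 was 0.92. The causes were not tested. Deviations of same-numbered arrays of different groups correlated between −0.248 and 0.49, and those of differently numbered arrays between −0.489 and 0.377. These ranges overlap and do not settle whether the numbers pair the arrays, and the main fit used no pairing. With the replicate block 13 passed for the interaction and 25 at stage 1.14. Over the named genes 528 of the recomputed values kept their call, 138 lost it and 0 changed direction. A fit of 6 arrays cannot give the average or the interaction, and the planned search of promoters for motifs was not run because no sequences were used here.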
